A study of Rattus norvegicus with 23 samples.

Results

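The genes described here are 5 genes of the cell division cycle, Pcna, Cdk1, Cdk4, Ccne1 and Ccnd1, measured in rat dorsal root ganglia (DRG) after a peripheral nerve lesion. They were taken by name, as every probe that the platform annotation assigns to them, which gave 6 of the 5088 probes and 5 of the 4153 genes on the array. Ccnd1 had 2 probes, 30F03 and 53G02, which were kept apart. The rats were Long-Evans animals of postnatal day 20 to 24 whose sciatic nerve was cut, and the L4 and L5 ganglia, which send axons into that nerve, were taken at 8 times between 4 h and 296 h later. On each of the 23 arrays, RNA of lesioned ganglia carried the dye Cy5 and RNA of intact ganglia the dye Cy3. There were 3 arrays at each of 4, 8, 12, 18, 24, 48 and 148 h and 2 at 296 h, and on the second of these the time label reads 294 h. The labels also call the material cultured DRG cells, while the treatment text describes ganglia taken from operated animals, and the latter was followed.

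A cut of the peripheral branch of a sensory neuron is known as a conditioning lesion, because it prepares the neuron to regrow its central branch. Adult sensory neurons are postmitotic, whereas satellite glia, Schwann cells, endothelial cells, fibroblasts and macrophages of a ganglion can divide. In dividing cells, mitogens raise the D cyclins, among them cyclin D1 (Ccnd1), which activate the kinase Cdk4. Cyclin E1 (Ccne1) with its own kinase partner drives entry into S phase, Pcna is the ring-shaped clamp that holds DNA polymerase on its template, and Cdk1 is the kinase that starts mitosis. A whole ganglion mixes all of these cells, so that more cells of a type and more RNA per cell cannot be told apart in any value given here.

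The promoters of 3 genes are shown because their probes had the positive late values described below. The sequences are the bases before the transcription start in RefSeq, assembly GRCr8, read 5′ to 3′ on the strand of the gene. Capitals mark matches, on either strand, to 4 motifs known from cell cycle and growth genes: an E2F motif (TTTCCCGC, TTTCGCGC, TTTGCCGC or TTTGGCGC), the CCAAT box (CCAAT, or ATTGG on the opposite strand), the CHR element (TTTGAA) and the E-box of Myc (CACGTG). Pcna lies on the minus strand at chr3:139955821-139956070, Cdk1 on the plus strand at chr20:19265043-19265251 and Cdk4 on the plus strand at chr7:64771203-64771452. For Cdk1 the 41 bases nearest the start were left off, since the annotated gene already begins there.
Pcna: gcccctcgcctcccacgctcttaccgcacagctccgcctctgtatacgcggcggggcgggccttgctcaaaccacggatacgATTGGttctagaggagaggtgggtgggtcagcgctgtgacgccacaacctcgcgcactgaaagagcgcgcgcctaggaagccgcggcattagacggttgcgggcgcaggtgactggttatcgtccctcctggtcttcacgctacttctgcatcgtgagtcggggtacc
Cdk1: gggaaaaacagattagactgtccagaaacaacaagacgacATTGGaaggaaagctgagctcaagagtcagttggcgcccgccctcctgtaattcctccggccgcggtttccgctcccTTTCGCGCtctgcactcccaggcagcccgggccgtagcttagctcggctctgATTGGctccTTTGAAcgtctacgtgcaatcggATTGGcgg
Cdk4: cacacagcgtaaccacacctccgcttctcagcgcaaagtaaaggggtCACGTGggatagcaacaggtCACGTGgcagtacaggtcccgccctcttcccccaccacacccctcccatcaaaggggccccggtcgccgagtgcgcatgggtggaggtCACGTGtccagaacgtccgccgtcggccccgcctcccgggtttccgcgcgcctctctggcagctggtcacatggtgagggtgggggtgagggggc
Within 250 bases before the start, Pcna held 1 CCAAT box, 168 bases upstream. Cdk1 held an E2F motif 133 bases upstream, 3 CCAAT boxes at 210, 81 and 49 bases, and the CHR letters at 72 and 16 bases, the last of which lies in the stretch not printed. Cdk4 held 3 E-boxes, at 203, 183 and 95 bases. Ccne1 held none of these letters in its window. Among 33469 RefSeq promoter windows of the same length, 1.73% held the E2F letters, 34.0% a CCAAT box, 16.2% the CHR letters and 5.59% the E-box. The G and C content of the windows was 63.6% for Pcna, 57.6% for Cdk1, 66.8% for Cdk4 and 72.8% for Ccne1, against a median of 51.2% over all windows. These are matches of letters and no measure of binding.

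Every value below is the log2 of the deposited ratio of lesioned over intact ganglia, so that 0 means equal signal and 1 a doubling in the lesioned ganglia. A ratio carries no level, hence neither the level of a gene nor the presence of a cell type in the ganglia could be read from these data. The direction was taken from the dyes in the labels. In that direction Gal, a neuropeptide that injured sensory neurons are known to induce, had a log2 ratio of 4.98 ± 0.37 (SE, n = 2) at 148 h, where it was measured on 2 of the 3 arrays. The arrays were of unequal quality. On 17 arrays between 4945 and 5011 probes were measured and the standard deviation over probes was 0.51 to 0.91, whereas 6 arrays had 2063 to 4353 probes and a standard deviation of 1.22 to 1.61. The 6 sparse arrays were replicates 2 and 3 of 48 h, all of 148 h and replicate 2 of 296 h, so that the late times rest largely on them. All 6 cell cycle probes were measured on all 23 arrays. A probe is said to have risen or fallen only where limma, fitted over all probes, gave an adjusted p under 0.05 with equal array weights and again with estimated array weights. The labels do not say that replicates came from separate animals, and p-values then measure only the spread between these samples.

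Pcna, the replication clamp, rose in the late part of the course. Its log2 ratio lay near 0 on the first day and was positive on all 8 arrays from 48 h on. The difference between the mean of the late times (48, 148 and 296 h) and the mean of the early times (4, 8 and 12 h) was 0.86 ± 0.21 (SE), a 1.81-fold change in the ratio, with a 95% interval of 0.42 to 1.29. limma gave an adjusted p of 0.0141 with equal weights and 0.0337 with array weights. Of the 6 probes, 1 rose under both weightings in this comparison, against 3.61% of the 2327 probes tested. With equal weights alone 2 were higher, Pcna and Cdk1, against 7.05%.

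On single arrays, the log2 ratio of Pcna was -0.12, -0.18 and 0.15 at 4 h. It was 0.16, 0.45 and -0.12 at 8 h, and -0.02, 0.05 and 0.40 at 12 h. No array of these times passed 0.45, and 4 of the 9 lay below 0. At 18 h the values were 0.08, 0.21 and 0.07, and at 24 h they were 0.44, 0.46 and 0.16, so that all 6 arrays were above 0 but within or close to the early range. At 48 h they spread to 0.69, 1.78 and 0.22. The 48 h mean was 0.89 ± 0.80 (SD, n = 3), and the array at 0.22 overlapped the early arrays. At 148 h the values were 1.60, 1.09 and 0.49, and at 296 h they were 0.52 and 1.22. All 5 arrays of these last times lay above every early array, at 148 h with a mean of 1.06 ± 0.56 (SD, n = 3) and at 296 h with a mean of 0.87 ± 0.49 (SD, n = 2).

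Because the sparse arrays had wider ratios, the rank of Pcna among the probes measured on each array was read as well. Sparse arrays measured fewer probes, so that percentiles on sparse and full arrays refer to different sets of probes. Over the 9 early arrays it ranged from the 32.1 to the 86.3 percentile with a median of 55.9, and over the 8 late arrays from the 60.7 to the 97.3 percentile with a median of 86.0. The full arrays among the late ones were 48 h replicate 1 and 296 h replicate 1, and both exceeded the highest early array, at 0.69 and 0.52. In a fit of full arrays alone the late minus early difference of Pcna was 0.52, with a limma adjusted p of 0.254. With all arrays scaled to equal spread it was 0.48 (adjusted p = 0.133), and without replicate 2 of 296 h it was 0.74 (adjusted p = 0.0706). An exact permutation test of the 8 late against the 9 early arrays was chosen after seeing the data. It gave a two-sided p of 0.000411 for Pcna, unadjusted among the 6 probes so tested. The same test gave 0.0244 for Cdk4 and, with late values lower, 0.0146 for Ccne1, 0.0224 for Ccnd1 53G02 and 0.138 for 30F03. All sparse arrays were late ones, and the test does not allow for their wider spread.

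**Figure D1:**
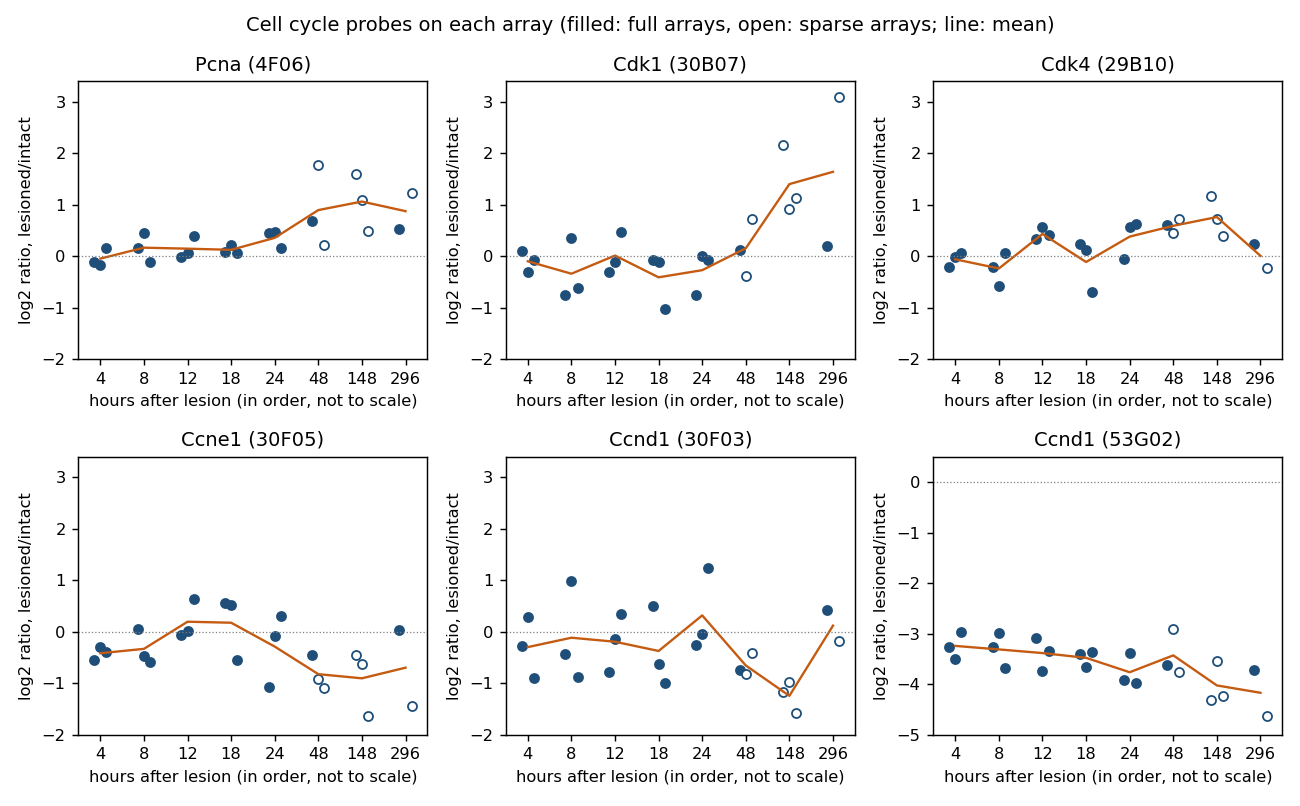
Log2 ratio of lesioned over intact ganglia (vertical axis) for each of the 6 probes on every array, by hours after the lesion (horizontal axis, in order and not to scale). Filled points are full arrays, open points sparse arrays, and lines join the means of each time. Pcna and Cdk1 have their highest points at 48 h or later, mostly on sparse arrays, and Ccnd1 53G02, drawn on a lower axis range, stays between -4.62 and -2.91.

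Cdk1, the mitotic kinase, had its highest time means at 148 and 296 h. Its values were 0.09, -0.31 and -0.08 at 4 h, -0.75, 0.35 and -0.62 at 8 h, and -0.31, -0.12 and 0.46 at 12 h. At 18 h they were -0.08, -0.12 and -1.03, and at 24 h they were -0.75, -0.0024 and -0.07. All 6 arrays of 18 and 24 h were thus at or below 0. At 48 h the values were 0.11, -0.38 and 0.73, a mean of 0.15 ± 0.56 (SD, n = 3). At 148 h they were 2.15, 0.92 and 1.12, each above every early array, with a mean of 1.40 ± 0.66 (SD, n = 3). At 296 h the arrays parted, with 0.19 on the full array and 3.08 on the sparse one, the highest value of any of these probes.

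The late minus early difference of Cdk1 was 1.21 ± 0.33 (SE), a 2.31-fold change with a 95% interval of 0.50 to 1.91. limma gave an adjusted p of 0.0277 with equal weights and 0.0791 with array weights, so that Cdk1 did not pass under both weightings. Without replicate 2 of 296 h the difference was 0.73 (adjusted p = 0.138), and on full arrays alone 0.30 (adjusted p = 0.813). Neither full array of the late times exceeded the highest early value of 0.46. The exact permutation test gave an unadjusted two-sided p of 0.00782, with 5 of the 8 late arrays above the early range. In rank among the probes measured on each array, Cdk1 had a median percentile of 34.8 on the early arrays and 81.7 on the late ones. At 148 h it lay between the 85.1 and the 90.8 percentile. The limit given for the ranks of Pcna holds here too.

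Cdk4, the partner kinase of the D cyclins, had smaller and less ordered ratios. They were -0.22, -0.03 and 0.06 at 4 h, -0.21, -0.58 and 0.07 at 8 h, and 0.33, 0.56 and 0.40 at 12 h. They were 0.24, 0.12 and -0.70 at 18 h and -0.05, 0.57 and 0.62 at 24 h. All 3 arrays of 12 h were above 0, and their range overlapped that of 48 h, where the values were 0.60, 0.45 and 0.72. At 148 h Cdk4 gave 1.17, 0.72 and 0.39, a mean of 0.76 ± 0.40 (SD, n = 3), and at 296 h it gave 0.24 and -0.23, back within the early range. The late minus early difference was 0.41 ± 0.17 (SE, limma adjusted p = 0.127, with array weights 0.367), and 4 of the 8 late arrays lay above the highest early array. This difference did not pass the test, with a 95% interval of 0.05 to 0.77.

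Cyclin E1 (Ccne1) had negative values on most arrays of both ends of the course. They were -0.55, -0.29 and -0.40 at 4 h, 0.06, -0.47 and -0.58 at 8 h, and -0.07, 0.02 and 0.64 at 12 h. At 18 h they were 0.56, 0.52 and -0.55, and at 24 h they were -1.08, -0.09 and 0.30, a spread of over 1 log2 unit within each of these times. At 48 h they were -0.45, -0.92 and -1.10, at 148 h -0.46, -0.63 and -1.63, and at 296 h 0.04 and -1.43. Of the 8 late arrays 7 were below 0, and 5 were below the lowest early array, all of them sparse. The late minus early difference was -0.62 ± 0.26 (SE), with a limma adjusted p of 0.130 with equal and 0.245 with array weights. On full arrays alone it was -0.02 (adjusted p = 0.993).

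Cyclin D1 was read by a pair of probes whose ratios lay far apart. Probe 30F03 gave -0.28, 0.29 and -0.90 at 4 h, -0.44, 0.98 and -0.89 at 8 h, and -0.78, -0.15 and 0.35 at 12 h. It gave 0.50, -0.63 and -0.99 at 18 h and -0.25, -0.04 and 1.24 at 24 h. Within each of these times the replicates fell on either side of 0. At 48 h the values were -0.74, -0.82 and -0.40, and at 148 h they were -1.17, -0.98 and -1.58, each below every early array, with a mean of -1.24 ± 0.30 (SD, n = 3). At 296 h they were 0.42 and -0.18. The late minus early difference of this probe was -0.39 ± 0.30 (SE, limma adjusted p = 0.431, with array weights 0.622).

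Probe 53G02 was far below 0 on every array from the first time on. It gave -3.27, -3.49 and -2.96 at 4 h, -3.27, -2.99 and -3.67 at 8 h, and -3.08, -3.73 and -3.34 at 12 h. It gave -3.41, -3.66 and -3.37 at 18 h, -3.92, -3.39 and -3.97 at 24 h, and -3.61, -2.91 and -3.76 at 48 h. At 148 h the values were -4.31, -3.54 and -4.23, and at 296 h -3.72 and -4.62. Its mean at 4 h was -3.24 ± 0.27 (SD, n = 3), a signal 9.46-fold lower in the lesioned than in the intact channel, and was among the 3 lowest of all tested probes at each time up to 24 h. It was below 0 at every time under both weightings, with limma adjusted p of 1.11e-07 or less with equal weights and 3.41e-05 or less with array weights. The dyes were not exchanged on any array, so that at a single time a lower ratio of the lesioned RNA and a lower signal of this probe with Cy5 cannot be told apart. A constant dye effect cancels between times, and there the late minus early difference was -0.56 ± 0.19 (SE, limma adjusted p = 0.0618, with array weights 0.215). That difference turned to 1.45 (adjusted p = 0.102) when the arrays were scaled to equal spread.

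On each of the 23 arrays 53G02 lay below 30F03. The mean difference was -3.25 ± 0.79 (SD, n = 23), 9.53-fold, with a range of -5.21 to -2.06. A constant offset of a probe or dye cannot be told apart from this difference, which is given as a description. The difference stayed between -3.32 and -3.13 when any 1 time was left out and was -3.33 on full arrays alone. Across the 23 arrays the probes had a Pearson correlation of 0.10. Names of wells place 53G02 on plate 53, where 10.5% of 76 probes had an early mean beyond 2 log2 units in either direction, against 0.278% of 5043 probes overall. On that plate 6 probes lay above 2 and 2 lay below -2, with 53G02 itself the lowest. The position of either probe in the Ccnd1 transcript is not given in the sources used here, so the values described are of the probes. A mean of both probes entered only the alternative fit in which the probes of each gene were averaged.

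**Figure D2:**
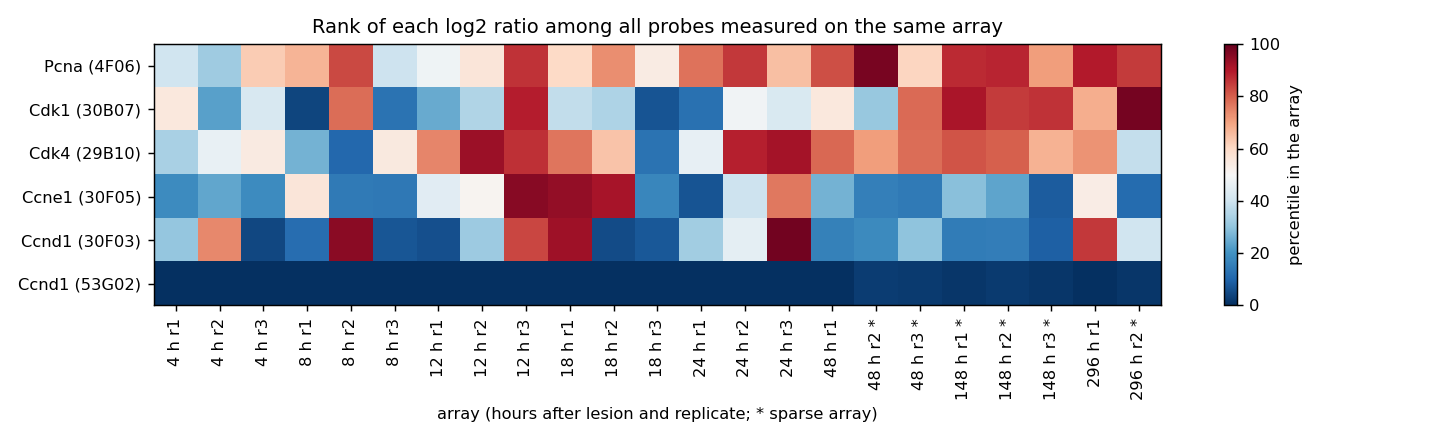
Percentile of each probe's log2 ratio among all probes measured on the same array (colour), for the 6 probes (rows) and the 23 arrays (columns, hours after the lesion and replicate number, sparse arrays starred). Pcna is at or above the 60.7 percentile on each late array, and Ccnd1 53G02 is at or below the 2.47 percentile on every array.

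At single times the mean ratio was tested against 0. Since the dyes were not exchanged, an effect of the lesion and a dye effect of a probe cannot be told apart in these tests. At 4, 8, 12, 18 and 24 h only Ccnd1 53G02 of the 6 probes passed, in each case under both weightings, where 0.538%, 0.42%, 0.139%, 0.379% and 1.42% of all tested probes passed. At 48 h 53G02 passed under both and Pcna with equal weights alone (0.89, limma adjusted p = 0.0187, with array weights 0.0557). The shares of all probes at 48 h were 15.6% with equal weights and 3.96% under both. At 296 h Cdk1 passed with equal weights alone (1.64, adjusted p = 0.044, with array weights 0.371), beside 8.65% and 0.106% of all probes.

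At 148 h all 6 probes passed with equal weights, 3 above and 3 below 0, against 28.7% of the 3187 probes tested. The means of Pcna, Cdk1 and Cdk4 were 1.06, 1.40 and 0.76, with limma adjusted p of 0.00353, 0.0131 and 0.00914. Those of Ccne1 and Ccnd1 30F03 were -0.90 and -1.24, with adjusted p of 0.0358 and 0.0147. With array weights only 53G02 passed (-4.02, adjusted p = 2.69e-06), beside 8.75% of all probes under both weightings, and the other 5 had adjusted p between 0.0824 and 0.319. All 3 arrays of this time were sparse. A ratio of a given rank therefore lies further from 0 on them than on full arrays.

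The contrast of 148 h with the early times gave 0.97 ± 0.28 for Pcna, 1.54 ± 0.45 for Cdk1 and 0.72 ± 0.23 for Cdk4 (SE). With equal weights these 3 passed, with limma adjusted p of 0.0249, 0.0279 and 0.0432, beside 10.2% of 3103 probes that were higher. Without replicate 1 of 148 h none of the 3 passed (adjusted p 0.170 for Pcna and Cdk1 and 0.235 for Cdk4), and without replicate 2 of 148 h Pcna (0.0564) and Cdk4 (0.0758) did not. Cdk4 was also lost without any 1 of 10 earlier arrays (adjusted p from 0.0503 to 0.0712). None passed with array weights (adjusted p 0.197, 0.201 and 0.389), where 2.87% of all probes were higher under both weightings. All 148 h arrays lay above the whole early range for 2 of the 6 probes, Pcna and Cdk1, as for 8.25% of the probes measured on all the arrays concerned, and below it for Ccnd1 30F03, as for 6.44%. At 296 h Pcna alone lay above the early range, as did 5.15% of probes, and at 48 h 0 of the 6 lay above or below it, as 4.84% and 3.48% of probes did. The share of all probes below the range at 296 h was 3.42%, and no member was among them. No member passed in the contrasts of 48 h or 296 h with the early times, beside 4.1% and 0.358% of all probes. At an unadjusted p under 0.05 limma gave 2 and 3 of the 6, beside 19.1% and 15.1%. A moderated F-test of equal means at all 8 times called 0 of the 6 probes in limma (adjusted p from 0.143 to 0.454, 3 at an unadjusted p under 0.05), beside 4.21% of all probes and 19.2% unadjusted.

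**Figure D3:**
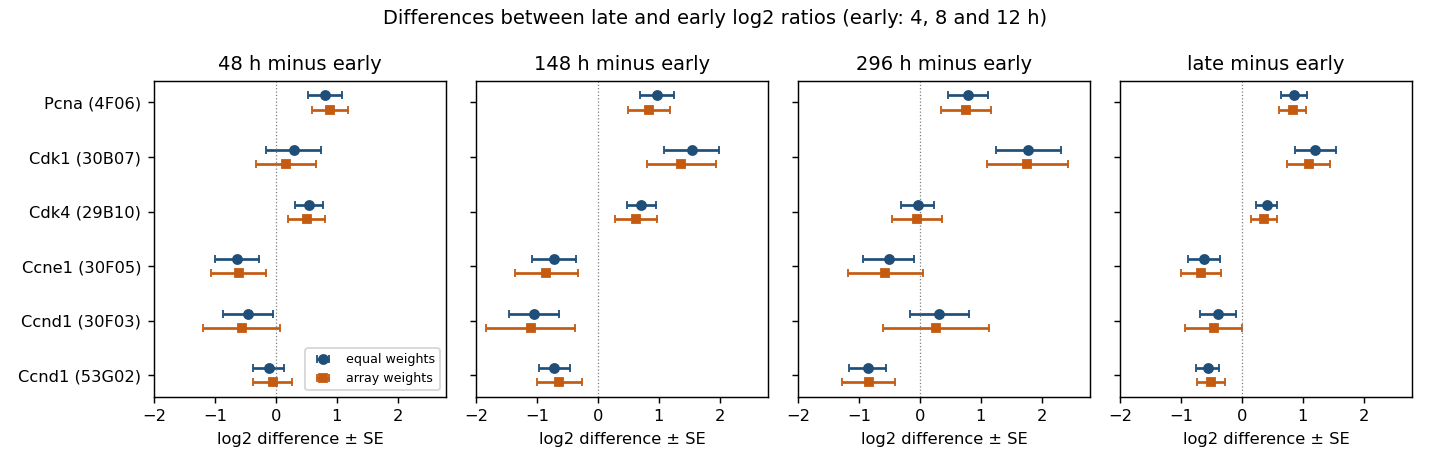
Differences in log2 ratio (horizontal axis, ± SE) between 48 h, 148 h, 296 h or all late times and the mean of 4, 8 and 12 h, for the 6 probes, with equal weights (circles) and array weights (squares). Pcna is to the right of 0 in all 4 panels, and Cdk1 lies farthest to the right from 148 h on with the widest error at 296 h.

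Of the other D cyclins, Ccnd3 had a late minus early difference of 0.55 ± 0.56 (SE, limma adjusted p = 0.567). Ccnd2 was measured on no array of 148 h and could not be tested in that contrast, and at 48 h its mean ratio was -0.53 (adjusted p = 0.621). Of the 4 tested probes of D cyclins and their kinases, all but Ccnd3 were the probes of Cdk4 and Ccnd1 already described. Of the 4, 0 passed with either weighting, and their median difference was 0.01, beside 0.04 over all tested probes. Cyclin B1 (Ccnb1), the partner of Cdk1 in mitosis, had a difference of -0.45 ± 0.44 (SE, adjusted p = 0.546), opposite in sign to Cdk1. At 148 h Ccnb1 gave -1.18 ± 0.50 (SE, adjusted p = 0.0849).

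Among the inhibitors of cyclin-dependent kinases, 1 of 3 tested probes rose from early to late under both weightings, beside 3.61% of all probes. It was probe 49H06 of Cdkn1a, which encodes p21, an inhibitor that stops the cycle and is induced by stress. Its difference was 1.62 ± 0.22 (SE, limma adjusted p = 0.000213, with array weights 0.000567). The other Cdkn1a probe, 29D11, had 0.84 ± 0.49 (SE, adjusted p = 0.289), the same sign without passing. Cdkn2b had -0.91 ± 0.45 (SE, adjusted p = 0.207). Cdkn1b and Cdkn1c were measured on too few late arrays for the contrast and gave 0.38 (adjusted p = 0.493) and 0.20 (adjusted p = 0.665) at 48 h, and Cdkn2a gave 0.83 (adjusted p = 0.148) at 148 h.

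Of the DNA replication list, 16 genes were on the array and 5 could be tested from early to late. Of these 2 rose under both weightings, Pcna and Prim1, beside 3.61% of the 2327 probes tested. Pcna is one of the genes described above, so that this list adds 4 tested genes, of which 1 was higher. Prim1, a subunit of the primase that lays down the RNA primer of new DNA, had a difference of 1.61 ± 0.33 (SE, limma adjusted p = 0.00483, with array weights 0.0109), larger than that of Pcna. The other 3 were Rpa2, a single-strand binding protein, at 0.36 (adjusted p = 0.228), Dut at 0.04 (adjusted p = 0.950) and the ligase Lig1 at -0.27 (adjusted p = 0.438). The median of the 5, Pcna included, was 0.36, beside 0.04 over all tested probes. At 148 h the clamp loader subunit Rfc1, with a mean ratio of 1.04 ± 0.25 (SE), passed with equal weights alone (adjusted p = 0.00534, with array weights 0.0824).

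Of 5 tested genes of mitosis and its checkpoints 0 passed in the late minus early contrast, with a median of -0.12. Cdc25b, a phosphatase that activates Cdk1, had -0.83 (limma adjusted p = 0.264), and Wee1, the kinase that holds Cdk1 inactive, had -0.71 (adjusted p = 0.107). At 48 h 2 of 13 tested genes were higher and 1 lower with equal weights alone, beside 7.92% and 7.69% of all probes. They were Cdc20, an activator of the anaphase complex (1.17, adjusted p = 0.0209), Cdc25a, a phosphatase that activates cyclin-dependent kinases (1.29, adjusted p = 0.0183), and Wee1 (-1.07, adjusted p = 0.0302). At 148 h 2 of 9 tested genes were lower with equal weights alone, Hmmr (-1.26, adjusted p = 0.0297) and Wee1 (-1.10, adjusted p = 0.0414), beside 12.9% of all probes. Aurkb, Birc5 and Plk1, often used as signs of dividing cells, had fewer than 2 arrays at 148 h and could not be tested there or from early to late. At 48 h Plk1 had a mean ratio of 0.23 (adjusted p = 0.742) and Birc5 one of 0.06 (adjusted p = 0.950), while Aurkb could not be tested. At 296 h only Plk1 of these could be tested, with -0.04 (adjusted p = 0.957). E2f1, the only tested gene of the Rb and E2F family, had a late minus early difference of 0.14 (adjusted p = 0.887).

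Among 9 tested genes of other cyclins and cyclin-dependent kinases, many of which act outside the cell cycle, 1 passed with equal weights, Ccng1, a cyclin gene induced by p53. It had 0.94 ± 0.27 (SE, limma adjusted p = 0.0294, with array weights 0.0808), and 7.05% of all probes were higher with equal weights. The others were Cdk11b at 1.004 (adjusted p = 0.0598), Ccnh at 0.14, Cdk17 at -0.01, Cdk16 at -0.02, Cdk7 at -0.13, Cdk5rap2 at -0.28, the neuronal kinase Cdk5 at -0.33 and Ccnc at -0.53. At 148 h 2 of 9 tested genes were lower with equal weights alone, Ccnc (-1.48, adjusted p = 0.0214) and Cdk17 (-1.12, adjusted p = 0.0233), beside 12.9% of all probes. The median of the 9 differences was -0.02.

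**Figure D4:**
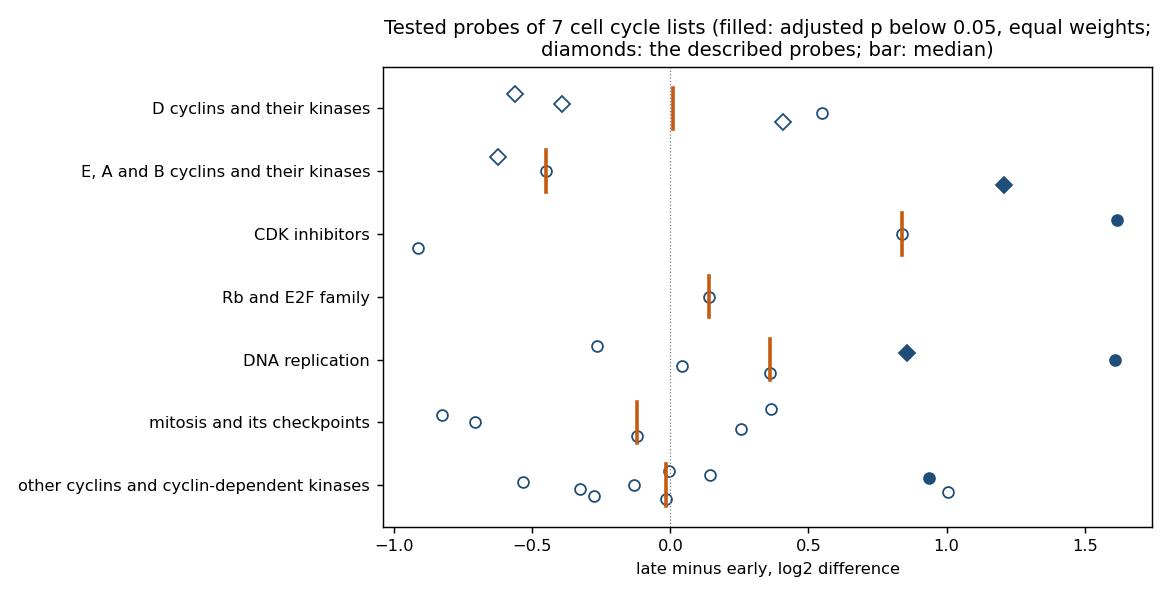
Late minus early difference in log2 ratio (horizontal axis) of each tested probe in 7 cell cycle lists (rows). Diamonds are the 6 probes of Pcna, Cdk1, Cdk4, Ccne1 and Ccnd1, filled points passed with equal weights, and bars are list medians. The filled points are Cdk1, Cdkn1a 49H06, Pcna, Prim1 and Ccng1, all to the right of 0.

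Markers of other cells were read over the same times. Of 11 macrophage markers on the array 2 could be tested from early to late, and both rose under both weightings, C1qb by 2.00 ± 0.29 and Lyz2 by 1.74 ± 0.24 (SE), with limma adjusted p of 0.000477 and 0.000213. Of all tested probes 3.61% rose under both weightings in this contrast. The mean log2 ratio over the measured macrophage markers ranged from -0.20 to 0.48 on the early arrays. On the late arrays that held any it ranged from 0.31 to 1.71, 1 array of the 23 having none. Each mean covers only the markers its array held, so that early and late means rest on different probes and are not a like comparison. At 148 h C1qb and Lyz2 were each on 2 arrays, and most of the other markers were on 0 or 1. At 148 h Aif1 could be tested as well and had a mean ratio of -0.48 (limma adjusted p = 0.223) and a difference from the early times of -0.28 (adjusted p = 0.612). Csf1r, Itgam and Ptprc of the same list were on 0 or 1 array of 148 h. Of 18 tested probes of sensory neurons 0 were higher and 5 lower with equal weights, 4 of them under both, where 4.25% and 1.25% of all probes were lower. Among the 4 were Scn10a (-0.99, adjusted p = 0.00294) and Tac1 (-0.83, adjusted p = 0.00302).

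Of 10 tested Schwann cell probes 3 were lower with equal weights and 1, Mbp (-0.93, limma adjusted p = 0.0024), under both. The shares of all probes were 4.25% and 1.25%. At 148 h 3 of 13 Schwann cell probes were higher and 4 lower with equal weights, beside 15.8% and 12.9% of all probes. The 2 that passed under both were higher, Mal (2.24, adjusted p = 0.00483, with array weights 0.032) and Drp2 (1.82, adjusted p = 9.94e-05, with array weights 0.011), beside 4.93% of all probes. From early to late, 1 of 6 satellite glia probes rose under both, Atp1b2 (1.17, adjusted p = 0.000522), beside 3.61% of all probes. Of 9 fibroblast and matrix probes 1 was higher with equal weights alone, Dcn (0.76, adjusted p = 0.0196), beside 7.05% of all probes. Of 6 endothelial, 6 skeletal muscle and 4 T and B cell probes 0 passed with limma in this contrast. At 148 h 4 of 10 fibroblast and matrix probes and 2 of 8 skeletal muscle probes were higher with equal weights alone, beside 15.8% of all probes. At that time 2 of 7 endothelial probes were lower with equal weights and 1, Tie1 (-1.99, adjusted p = 0.00184, with array weights 0.0388), under both. The shares of all probes were 12.9% and 3.83%. Atp1b2 was higher under both at 148 h as well, and 0 of 4 T and B cell probes passed. The part of any of these cells in the ratios of Pcna or Cdk1 was not tested.

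Over all 23 arrays, the probes whose log2 ratios ran most like those of Pcna, among 4403 with at least 15 shared arrays, were Gja3 (Pearson r = 0.89, 21 arrays), Ifitm3 (0.85, 20 arrays) and Prkcd (0.85, 23 arrays). For Cdk1 they were Dlgap1 (0.88, 20 arrays), Mbtps1 (0.87, 20 arrays) and Gnai3 (0.86, 23 arrays). Coefficients were lower for Cdk4 (Cib1, 0.77, Gclc, 0.74, and Rad50, 0.71) and for Ccne1 (Pnmt, 0.81, Cbs, 0.79, and Olah, 0.77). For Ccnd1 30F03 they were Pcdhb13 (0.74), Dspp (0.71) and Grb2 (0.69), and for 53G02 Csf2rb (0.80), S100a6 (0.70) and Gstm1 (0.70). No probe of the cell cycle lists was among them. All of these points share arrays, and the wide ratios of the sparse arrays weigh on each coefficient, so they are given as a description.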

How the data were processed

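Gene expression in L4 and L5 DRG was measured on 23 spotted two-color arrays at 8 times after sciatic nerve transection. The deposited values are linear ratios, which the authors made from the 2 channels of each array without pooling replicates. How arrays were scanned, background-corrected and normalized is not given in the sources used here. The direction of the ratio was taken from the dyes. Signal over background is unknown, so the number of arrays sets the precision.

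Ratios were converted to log2 and a mean for each time was fitted over all 23 arrays with limma 3.58.1 in R 4.3.3. Benjamini-Hochberg adjustment ran over all probes measured on at least 2 arrays of each time involved. For the contrast of all late with early times and for the test of equal times, at least 2 arrays were needed at every time. Late minus early contrasts compared 48, 148 and 296 h with 4, 8 and 12 h. Permutation tests used scipy 1.17.1 in Python 3.11.15, and the code was tested on simulated data. Of 5088 probes, 4423 had 1 gene symbol, 2 had several and 663 had none. The genes named are all probes of the 5 genes, the leading probes by p of each cell cycle and marker list, the other measured cyclins, kinases and inhibitors, and the 3 probes most like each member. Members and lists were chosen with earlier results of these data known. Arrays with at least 200 missing probes were called sparse. Alternatives were array weights, median centring, scaling, other filters on missing values, robust variances, a replicate block, the array class as a term, full arrays alone, gene means, each array left out, fits of single times and the methods' t-test.

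Replicate numbers did not pair the arrays. Over 77 pairs of arrays with the same number the correlation of deviations from the time means ran from -0.14 to 0.12, with a median of -0.01.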

Additional observations from a re-analysis of the deposited data

Results flagged for a closer look

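Differences between late and early times past the limma threshold with equal weights were found for 3 of the 6 probes, for Cdk4 only in the contrast of 148 h. Among all tested probes 7.05% were higher from early to all late times and 10.2% from early to 148 h. From early to all late times the log2 ratio differed by 0.86 for Pcna, with 7 of 8 late arrays above the highest early array, and by 1.21 for Cdk1, with 5 of 8 above. From early to 148 h it differed by 0.97 for Pcna, 1.54 for Cdk1 and 0.72 for Cdk4. Of these 5 differences, that of Pcna over all late times also passed with array weights.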

How the results depend on the processing

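Late values rest on 6 sparse arrays with a wide spread of ratios, and with 2 or 3 arrays a time the precision is limited. No array exchanged the dyes. Of the 6 probes, the number past the limma threshold with equal weights was 1 at each time up to 24 h and 2, 6 and 2 at 48, 148 and 296 h, 2 for late minus early, 3 for 148 h minus early and 0 for 48 h minus early, 296 h minus early and the test of equal times. With array weights it was 1 at 48, 148 and 296 h, 1 for late minus early and 0 for 148 h minus early. With arrays scaled to equal spread, or with the array class as a term, it was 1 at 48, 148 and 296 h and 0 for late minus early and 148 h minus early. On full arrays alone it was 1 at 48 h, 1 at 296 h and 0 for late minus early. With no filter on missing values it was 1 at 296 h. With the probes of a gene averaged, which left 5 genes in place of 6 probes, it was 5 of the 5 genes at 148 h. For 148 h minus early it was then 4 of the 5 genes. Over the whole array this averaged fit called 878 at 148 h and 464 for 148 h minus early. With probes kept apart the calls numbered 916 and 492. Of the 6 probes kept apart, 3 passed above 0 at 148 h and 3 below. The averaged value of Ccnd1 includes its probe that was far below 0 on every array. In fits of the arrays of 1 time, 0 of the 6 probes passed at 4, 8, 12, 48, 148 and 296 h. The methods' t-test at an unadjusted threshold called 2 of the 6 probes at 4, 12 and 148 h. It called 1 at 8, 18 and 24 h, 3 at 48 h and 0 at 296 h. Over all probes this t-test called 438 of 5015 at 4 h and 528 of 5020 at 12 h. At 48 h it called 381 of 4471 and at 148 h 417 of 3187. After Benjamini-Hochberg adjustment it called 0 probes of the whole array at each time. The cause of these changes was not tested.

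With the array class as a term, Ccne1 at 148 h turned from -0.90 to 0.048 (limma adjusted p = 0.966), and the late minus early differences were 0.51 for Pcna (adjusted p = 0.666) and 0.29 for Cdk1 (adjusted p = 0.912). Leaving out each array in turn gave 1 to 3 probes at 48 h, 2 to 6 probes at 148 h, 1 to 4 probes at 296 h, 0 to 4 for late minus early, 0 to 1 for 48 h minus early, 0 to 3 for 148 h minus early, 0 to 2 for 296 h minus early and 0 to 1 for equal times. The count of 4 for late minus early came without replicate 1 of 296 h and the count of 0 without replicate 2 of 296 h. Without any 1 of replicate 2 of 4 h, replicates 1 and 3 of 8 h and replicates 1 and 2 of 12 h, Cdk1 lost its late minus early call (limma adjusted p from 0.0502 to 0.0551). The count of 2 at 148 h and of 0 for 148 h minus early came without replicate 1 of 148 h. Over all probes, late minus early calls numbered 263, 116 with array weights, 48 after scaling, 164 with at least 3 arrays at a time, 17 with the array class as a term and 87 on full arrays alone. Calls at 148 h numbered 916, 279 with array weights, 210 after scaling and 205 with the array class as a term, those at 48 h 698, 177, 132 and 247, those at 296 h 245, 3, 67 and 24, and those for 148 h minus early 492, 117, 42 and 99 in the same order. Leaving out 1 array moved these counts to between 131 and 458 for late minus early, 567 and 1016 at 148 h, 443 and 768 at 48 h, 5 and 573 at 296 h, and 295 and 542 for 148 h minus early. The lowest count for late minus early and at 296 h came without replicate 2 of 296 h and the highest without replicate 1 of 296 h. The lowest at 48 h came without replicate 2 of 48 h, the lowest at 148 h without replicate 2 of 148 h and the lowest for 148 h minus early without replicate 3 of 148 h.

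Replicate numbers did not pair the arrays, and 9 of 23 arrays had their best partner in their own number. With the replicate block, 1 probe passed at 296 h, 2 for 148 h minus early, 2 for late minus early and 6 at 148 h.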
